A study of Mus musculus with 8 samples.

Results

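The miR-106b-25 and miR-106a-363 clusters are the mouse paralogs of the cluster that runs from miR-17 to miR-92a in the gene Mir17hg. Their members were found as the entries of the miRNA class named for an arm of miR-106b, miR-93, miR-25, miR-106a, miR-18b, miR-20b or miR-363. The names mmu-miR-106a-3p and mmu-miR-18b-3p matched no entry and were not analysed here. The rule gave 11 mature miRNAs among 576 in the table, of 730 entries in the miRNA class and 20558 small RNAs in all. Of the 11, 6 belong to miR-106b-25 and 5 to miR-106a-363.

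The libraries were made from testis small RNA of adult C57Bl/6 males, of which 4 were controls (SD, standard chow, mice M1N, M2N, TN1 and TN2) and 4 were given a Western-like diet rich in fat and sugar (WD, mice M1W, M2W, M3W and M5W). The labels state a lipid-rich diet from 4 weeks of age and mating at 4 months for every library, the controls included, whereas the study's methods give standard chow to the controls and an earlier start. The groups were therefore taken from the words control and experimental in the titles, and the labels name no genetic change in any of the 8. The labels do not state in words that each library is 1 animal, so a p-value covers the spread between these libraries.

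A miRNA hairpin is cut by Drosha and Dicer into 2 strands, named 5p and 3p, of which usually one is kept by an Argonaute protein and the other is degraded. The kept strand finds its messenger targets mainly through its seed, bases 2 to 8, so miRNAs with the same seed share many predicted targets. The family is known for holding back cell cycle inhibitors and pro-apoptotic genes such as Cdkn1a and Bcl2l11, and the Mir17hg cluster is active in the dividing germ cells of the testis. The miR-106b-25 hairpins lie within Mcm7, which encodes a subunit of the replicative helicase.

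On the NCBIM37 assembly (mm9) with the GENCODE M1 annotation, the miR-106b-25 hairpins are on the minus strand of chromosome 5, in intron 13 of the 15-exon Mcm7 transcript ENSMUST00000000505.9. In the order of transcription they are Mir106b at chr5:138606965-138607046, Mir93 at chr5:138606751-138606838 and Mir25 at chr5:138606549-138606632, a span of 498 bases. Mir93 and Mir25 also overlap an exon of 1 other Mcm7 transcript. The miR-106a-363 hairpins are on the minus strand of the X chromosome, downstream of the long non-coding RNA gene Kis2, whose annotated end overlaps the first hairpin by 5 bases. They are Mir106a at chrX:50095680-50095744, Mir18b at chrX:50095508-50095590, Mir20b at chrX:50095290-50095369, Mir19b-2 at chrX:50095160-50095243, Mir92-2 at chrX:50095015-50095105 and Mir363 at chrX:50094870-50094944, over 875 bases. The mature products miR-19b-3p and miR-92a-3p can come from this cluster or from Mir17hg, so they carry no information on either alone and were not taken as members.

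The mature sequences of all 11 members were matched by name in RefSeq (GRCm38.p6). They are shown because the seed sets the families and the remaining bases set how well the paralogs can be told apart by reads. Bases 2 to 8 are in capitals. The following 4 members and their paralogs miR-17-5p and miR-20a-5p share the seed AAAGUGC.

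mmu-miR-93-5p: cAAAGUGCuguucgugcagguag
mmu-miR-106b-5p: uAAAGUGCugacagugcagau
mmu-miR-106a-5p: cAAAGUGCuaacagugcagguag
mmu-miR-20b-5p: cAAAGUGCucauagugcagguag
mmu-miR-17-5p: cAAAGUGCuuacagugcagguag
mmu-miR-20a-5p: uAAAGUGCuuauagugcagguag

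The members miR-25-3p and miR-363-3p share the seed AUUGCAC with miR-92a-3p, and miR-18b-5p shares AAGGUGC with miR-18a-5p.

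mmu-miR-25-3p: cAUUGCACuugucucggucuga
mmu-miR-363-3p: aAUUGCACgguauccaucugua
mmu-miR-92a-3p: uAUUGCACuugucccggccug
mmu-miR-18b-5p: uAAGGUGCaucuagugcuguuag
mmu-miR-18a-5p: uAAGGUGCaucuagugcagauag

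The opposite strands have seeds of their own. Those of miR-106b and miR-93 are shown because the balance between the strands is described below.

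mmu-miR-106b-3p: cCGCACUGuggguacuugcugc
mmu-miR-93-3p: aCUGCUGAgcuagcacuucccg

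With positions counted from 1 at the 5′ end and the base of the abundant paralog written first, miR-106a-5p differed from miR-17-5p by U10A alone. miR-20b-5p differed from miR-17-5p by U10C and C12U, and from miR-20a-5p by U1C and U10C. miR-18b-5p differed from miR-18a-5p by A18U and A20U. miR-20b-5p and miR-106a-5p, the first base being that of miR-106a-5p, differed by A10C and C12U. Further apart were pairs with 4 substitutions between miR-93-5p and miR-17-5p, 3 between miR-106b-5p and miR-17-5p over 21 bases, and 3 between miR-25-3p and miR-92a-3p. The authors' alignment to the genome allowed 2 mismatches, and how a read that matched several miRNAs was counted is not given in the sources used here. The counts of miR-106a-5p, miR-20b-5p and miR-18b-5p may therefore hold reads of their paralogs, which was not tested.

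The deposited values were counts of reads per small RNA, with totals of 2064562 to 3253798 per mouse in SD and 2159625 to 3092399 in WD. Below, a level is given in CPM, the count scaled to the library total and its TMM factor. In brackets with an n, SD stands for the standard deviation, and elsewhere for the standard diet. A count of 3, taken as the floor of detection, was worth 0.922 to 1.45 CPM of the unscaled totals and covers counting error only. Markers of male germ cells (miR-34b, miR-34c and miR-449 arms, 7 of 7 in the table) summed to 13495 to 18249 CPM in SD and 13365 to 18213 CPM in WD, so the markers expected of testis were abundant. Of the 6 tested, 3 had an unadjusted p of 0.05 or less in edgeR's test (background 16.5%) and were lower in WD, namely miR-34c-3p, miR-34b-3p and miR-449a-5p at log2 differences of -0.50, -0.45 and -0.62, with 0 called after adjustment. The other 3 were at 0.08 (miR-34c-5p), -0.06 (miR-34b-5p) and 0.36 (miR-449c-5p), so the list had no shared direction. Their part in the members' differences was not tested. The gonadal miR-202 arms (2 of 2) summed to 3609 to 4193 CPM in SD and to 4187 to 7021 CPM in WD. Markers of blood (7 of 9 names in the table) summed to 337 to 580 and 279 to 581 CPM, those of vessels (4 of 4) to 4381 to 6379 and 4480 to 8359 CPM, and those of skeletal muscle (2 of 4 names) to 36.7 to 46.3 and 26.7 to 51.7 CPM. The liver marker miR-122-5p was found in TN1 and TN2 alone, at a mean of 14.2 CPM, and had 0 counts in the other 6 mice.

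The members took between 0.853% and 1.04% of the miRNA counts of a mouse, and their levels spanned 3 orders of magnitude. mmu-miR-93-5p was the most abundant, at rank 47 of the 576 mature miRNAs by mean count, followed by mmu-miR-25-3p at rank 69 and mmu-miR-106b-5p at rank 121. miR-106b-3p was at rank 167, miR-93-3p at 212, miR-106a-5p at 294 and mmu-miR-20b-5p at 303. The levels of the first 3 did not overlap each other over the 8 mice, whereas those of miR-106b-3p and miR-93-3p did, and so did those of miR-106a-5p and miR-20b-5p. These ranks compare reads and carry any difference in how well each miRNA is captured into a library.

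**Figure D1:**
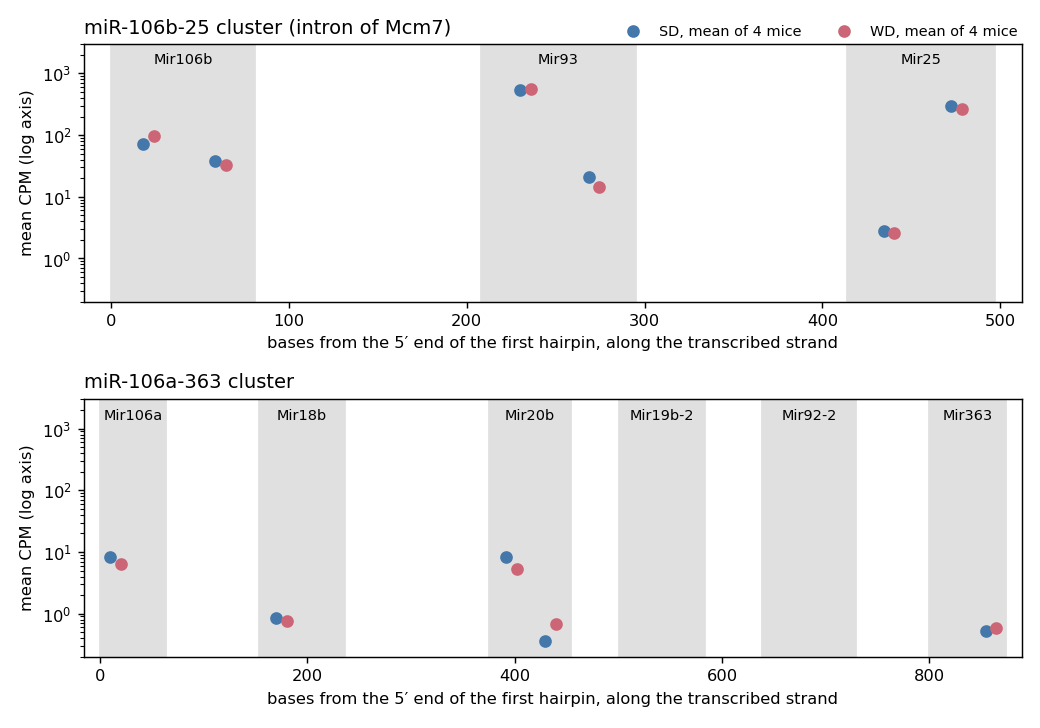
The hairpins of both clusters are drawn to scale as grey blocks along the transcribed strand (x axis, bases from the 5′ end of the first hairpin), with the mean CPM of each mature arm in SD and WD (y axis, log scale). miR-93-5p and miR-25-3p stood highest, all arms particular to the X-linked cluster stood below 10 CPM, and no value is drawn for Mir19b-2 and Mir92-2, whose 3p arms are shared with Mir17hg.

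The remaining 4 members stayed under the filter on low counts. miR-25-5p, the strand opposite miR-25-3p, had 5 to 10 counts per mouse. miR-18b-5p had 0 to 7 counts, miR-363-3p 0 to 5 and miR-20b-3p 0 to 3. The last 3 of these are at or near the floor of 3 counts. Fitted without the filter, the 4 had unadjusted p of 0.342 to 0.812 in edgeR's test, and no diet difference was detectable at this depth. The filter thus kept 7 of the 11 members, and the tests below cover those 7.

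Whether the diet moved these miRNAs was asked with edgeR's quasi-likelihood test of WD against SD, fitted to all 16955 small RNAs that passed the filter. The log2 fold change was positive for 2 of the 7 members and negative for 5, and their median was -0.22, beside 0.03 over the 418 miRNA entries tested and -0.01 over all small RNAs. No member passed an adjusted p of 0.05, and the background called was 0% (0 of 16955). At an unadjusted p of 0.05 or less in edgeR's test, 2 of 7 members passed, 1 in each direction, where the share was 16.5% of the miRNA entries and 14.6% of all small RNAs. By an unadjusted p of 0.1 or less with a fold change of at least 1.5, 0 of 7 passed, against a background of 15.1% of the miRNA entries. The 4 SD and 4 WD mice overlapped for each of the 7 members. Over the miRNA entries the groups were apart for 8.37%, so overlap in all 7 is near the background.

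The 3 main products of miR-106b-25 are cut from one intron. miR-93-5p had 618, 586, 429 and 483 CPM in M1N, M2N, TN1 and TN2 and 558, 619, 515 and 542 CPM in M1W, M2W, M3W and M5W. The means were 529 ± 88.1 and 558 ± 44.1 CPM (SD, n = 4 each), a log2 difference of 0.08 ± 0.16 (SE) with an adjusted p of 0.833 in edgeR's test. The WD mice lay inside the range of the SD mice but for M2W, which was level with M1N.

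miR-25-3p, which carries the seed of miR-92a-3p, had 273, 349, 253 and 297 CPM in the SD mice and 245, 287, 290 and 225 CPM in the WD mice. The means of 293 ± 41.6 and 262 ± 32.2 CPM (SD, n = 4) differed by -0.16 ± 0.16 (log2, SE; edgeR adjusted p = 0.624), which is within the spread between mice.

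miR-106b-5p, the first product of the cluster, was the member whose 5p strand was most raised in WD. It had 56.5, 64.4, 95.1 and 71.3 CPM in the SD mice and 78.6, 108, 99.5 and 106.1 CPM in the WD mice. Only TN1 among the controls reached the WD range, and the means were 71.9 ± 16.7 and 98.1 ± 13.6 CPM (SD, n = 4). The log2 difference was 0.45 ± 0.19 (SE), with an unadjusted p of 0.0294 and an adjusted p of 0.323 in edgeR's test, and the exact permutation test of log2 CPM gave a two-sided p of 0.0571, where the smallest possible is 0.0286. Fitted to the miRNA class alone, the difference was 0.42 with an unadjusted p of 0.110 in edgeR's test.

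The sum of all 6 arms of miR-106b-25 was 954.8 ± 105.6 CPM in SD and 967 ± 74.3 CPM in WD (SD, n = 4; exact permutation test, two-sided, p = 0.771), and the sign of the small difference depended on the control pair. miR-93-5p made up 56.5% of this sum over the 8 mice, miR-25-3p 28.9% and miR-106b-5p 8.94%, so a shift of miR-106b-5p hardly moved it. Entries named for the precursors held few reads, with 3 to 13 per mouse for the miR-93 hairpin and 0 to 3 for the miR-106b hairpin.

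**Figure D2:**
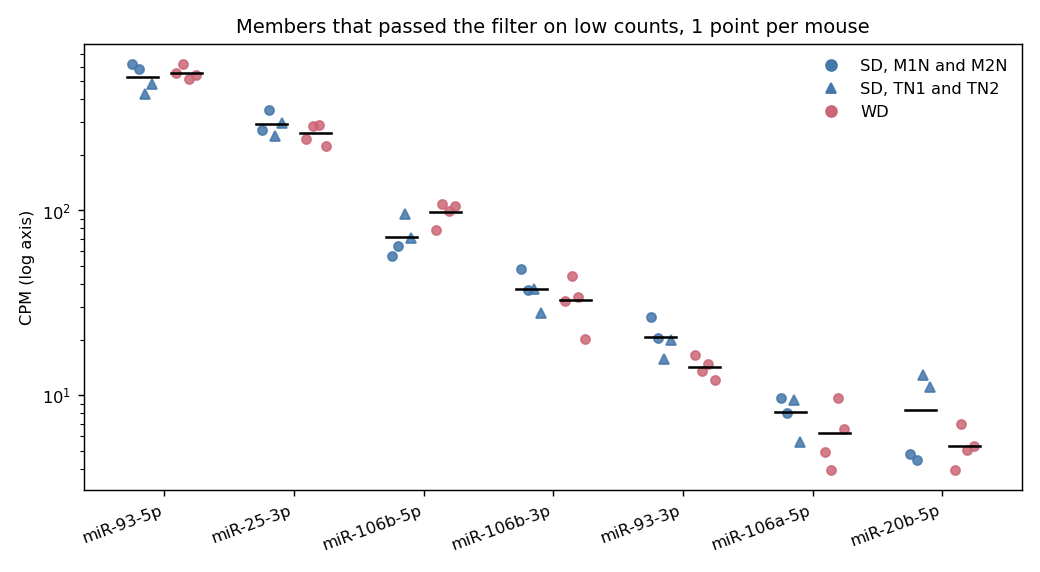
Each point is the level of a member in 1 mouse (CPM, log axis), with circles for M1N, M2N and the WD mice and triangles for TN1 and TN2, and the bar is the mean of 4 mice. miR-106b-5p lay higher in WD with TN1 among the WD values, miR-93-3p lay lower, and miR-20b-5p split the SD mice into pairs.

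The opposite strands of miR-93 and miR-106b had lower means in WD. miR-93-3p had 26.4, 20.4, 15.8 and 19.9 CPM in the SD mice and 16.4, 13.6, 14.7 and 12.1 CPM in the WD mice, so that only TN1 fell below a WD mouse, M1W. Its means were 20.6 ± 4.38 and 14.2 ± 1.82 CPM (SD, n = 4), a log2 difference of -0.53 ± 0.22 (SE) with an unadjusted p of 0.0266 and an adjusted p of 0.323 in edgeR's test (exact permutation test of log2 CPM, p = 0.0571). miR-106b-3p had 48.3, 37.0, 37.5 and 27.8 CPM in SD and 32.5, 44.3, 34.1 and 20.2 CPM in WD. Its log2 difference of -0.22 ± 0.23 (SE; edgeR adjusted p = 0.658) was within the spread between mice, and ran from -0.39 without M2W to -0.027 without M5W.

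Both strands of a hairpin come from one cut and one library, so their ratio does not depend on how libraries are scaled. The 2 strands of miR-93 are shown in capitals in the RefSeq hairpin, which equals the minus strand of NCBIM37 at chr5:138606751-138606838, and those of miR-106b in the hairpin at chr5:138606965-138607046.

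Mir93: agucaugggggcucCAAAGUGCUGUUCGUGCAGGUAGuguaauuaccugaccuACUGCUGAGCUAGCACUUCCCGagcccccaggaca
Mir106b: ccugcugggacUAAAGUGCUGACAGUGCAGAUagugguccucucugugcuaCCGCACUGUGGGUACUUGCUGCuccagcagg

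miR-93-5p exceeded miR-93-3p by 23.4, 28.7, 27.2 and 24.3 times in M1N, M2N, TN1 and TN2, and by 33.9, 45.5, 34.9 and 44.6 times in M1W, M2W, M3W and M5W. All 4 WD mice were above all 4 SD mice. On the log2 scale the ratio was 4.68 ± 0.14 in SD and 5.28 ± 0.22 in WD (SD, n = 4), a difference of 0.60 in favour of the 5p strand. The exact permutation test gave the smallest p it can, 0.0286, and 0.0571 after Benjamini-Hochberg adjustment over the 2 hairpins tested. The difference was 0.59 against M1N and M2N and 0.61 against TN1 and TN2, so the SD pairs gave nearly one value. Among 101 hairpin names with at least 10 counts on average for each of the 2 strands, the groups were apart for 4, or 3.96%, of which 3 were higher in WD. The difference of miR-93 ranked 28 of the 101 by size, beside a median of 0.15 over them. The miR-93-3p counts behind it were 31 to 77 per mouse.

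In the miR-106b hairpin the strands were closer, with 5p to 3p ratios of 1.17, 1.74, 2.54 and 2.57 in the SD mice and 2.41, 2.45, 2.92 and 5.25 in the WD mice. The log2 difference of 0.69 had an exact permutation p of 0.171, and the groups overlapped through TN1 and TN2. It was 1.11 against M1N and M2N, 0.27 against TN1 and TN2, and 0.44 without M5W, whose ratio was the highest. The miR-25 hairpin was not tested, as its 5p strand had a mean of 7.1 counts.

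**Figure D3:**
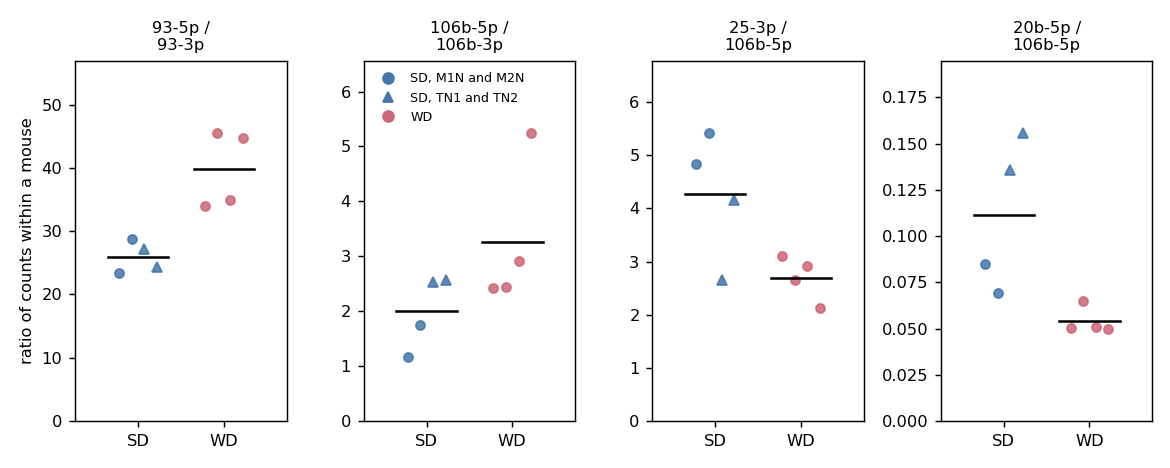
Ratios of counts within a mouse (y axis, linear, from 0) are shown for both strands of miR-93 and miR-106b, for miR-25-3p against miR-106b-5p and for miR-20b-5p against miR-106b-5p. Each point is 1 mouse and the bar is the mean of 4 ratios. The miR-93 strands and the pair of miR-20b-5p and miR-106b-5p separated SD from WD, and the other pairs overlapped.

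In the X-linked cluster, miR-106a-5p had 9.60, 7.97, 9.45 and 5.56 CPM in the SD mice and 4.93, 3.95, 9.68 and 6.53 CPM in the WD mice. The log2 difference of -0.41 ± 0.31 (SE; edgeR adjusted p = 0.514) was within the spread, and M3W was level with the highest controls. miR-106a-5p stood at 0.00713 to 0.0306 times miR-17-5p, the paralog from which it differs by U10A.

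miR-20b-5p had 4.80, 4.46, 12.9 and 11.1 CPM in M1N, M2N, TN1 and TN2, and 3.94, 7.02, 5.07 and 5.29 CPM in the WD mice. TN1 and TN2 were thus above each of the other 6 mice, and M1N and M2N were among the WD values. Over all 4 controls the log2 difference was -0.64 ± 0.37 (SE; edgeR adjusted p = 0.409). It was 0.19 against M1N and M2N and -1.20 against TN1 and TN2, the latter with an unadjusted p of 0.000941 and an adjusted p of 0.449 in edgeR's test. The liver marker miR-122-5p was also found in TN1 and TN2 alone. The 5 miRNAs with the seed of miR-106b-5p moved by 1 base were divided. miR-291a-3p, miR-294-3p and miR-295-3p of the embryonic miR-290 cluster averaged 0, 1.14 and 0.514 CPM in M1N and M2N, but 2.34, 12.6 and 7.25 CPM in the TN pair. miR-302b-3p and miR-302d-3p averaged 10.6 and 3.98 CPM in M1N and M2N, and 8.36 and 3.35 CPM in the TN pair. The part of these miRNAs in the difference of miR-20b-5p was not tested.

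The sum of the arms particular to miR-106a-363 was 18.2 ± 5.49 CPM in SD and 13.6 ± 2.52 CPM in WD (SD, n = 4), with overlapping groups (exact two-sided permutation p = 0.229). It was 25.8 CPM at most, in TN1, and the log2 difference of -0.39 was -0.093 against M1N and M2N and -0.68 against TN1 and TN2. Without single mice the difference ran from -0.53 to -0.20, the latter without TN1.

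The control pairs differed for other members too, and so the values were computed against each pair alone. In edgeR's test against M1N and M2N, miR-106b-5p had a log2 difference of 0.70 with an adjusted p of 0.0180, and miR-93-3p one of -0.71 with an adjusted p of 0.0429. Against this pair 20.8% of all small RNAs tested were called, so 2 of 7 members is near the background. Against TN1 and TN2 the differences were 0.23 and -0.31, neither of them called, with 0.134% of all small RNAs called. For both miRNAs the direction was shared by the pairs. miR-93-5p changed sign, from -0.11 against M1N and M2N to 0.29 against TN1 and TN2, while miR-25-3p was at -0.25 and -0.07. Blood markers averaged 511 CPM in the M pair of controls and 364 CPM in the TN pair, and vessel markers 6313 and 4615 CPM. Their part in the difference between the pairs was not tested. The labels do not say what M and TN stand for.

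**Figure D4:**
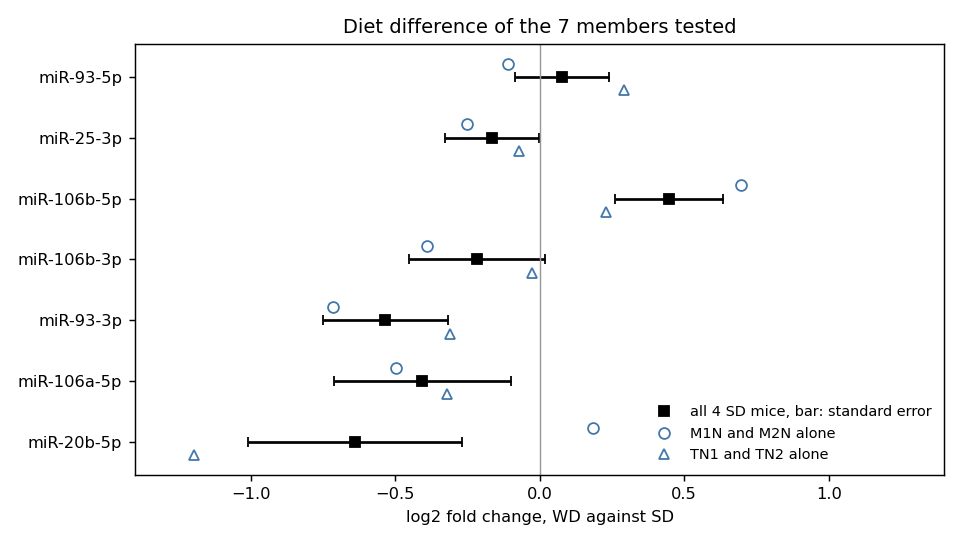
The log2 fold change of WD against SD (x axis) is shown for each of the 7 members tested, with black squares for all 4 SD mice and bars for the standard error. Open circles (M1N and M2N alone) and open triangles (TN1 and TN2 alone) are on one side of 0 for 5 members and on opposite sides for miR-93-5p and miR-20b-5p.

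The members also differ in base composition. miR-106b-5p, with 42.9% G and C, had the highest log2 fold change of the 7, while miR-106b-3p (63.6%) and miR-93-3p (59.1%) were below 0. The others did not follow such an order, since miR-20b-5p and miR-106a-5p (47.8%) were at -0.64 and -0.41 and miR-93-5p (52.2%) was at 0.08. Over 286 mature miRNAs with a sequence, the G and C content had a Spearman rho of -0.33 with the log2 fold change, a description across miRNAs of the same 8 libraries. The correction was fitted to mature miRNAs with a sequence. On that set uncorrected, the log2 difference was 0.38 for miR-106b-5p and -0.55 for miR-93-3p, with unadjusted p of 0.140 and 0.0488 in edgeR's test. With the correction they were 0.32 and -0.43, with unadjusted p of 0.325 and 0.210 in edgeR's test. With the correction, the difference in the strand ratio was 0.59 for miR-93 and 0.53 for miR-106b (exact permutation tests, p = 0.0286 and 0.0857).

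Ratios between members asked whether products of one transcript, or paralogs with one seed, shifted against each other. None of the 10 tested had an adjusted p under 0.05. Within miR-106b-25, the ratio of miR-25-3p to miR-106b-5p was 4.83, 5.42, 2.66 and 4.16 in the SD mice and 3.11, 2.65, 2.91 and 2.12 in the WD mice. Its log2 difference was -0.63 (exact permutation test, p = 0.0857, adjusted p = 0.286), with TN1 among the WD values. Against M1N and M2N it was -0.94, and against TN1 and TN2 -0.32. The ratios of miR-93-5p to miR-106b-5p and of miR-25-3p to miR-93-5p differed by -0.37 and -0.25 (exact permutation tests, p = 0.257 and 0.114).

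miR-20b-5p and miR-106b-5p share a seed and come from different clusters. Their ratio was 0.0848, 0.0693, 0.136 and 0.156 in the SD mice and 0.0502, 0.0648, 0.0509 and 0.0499 in the WD mice. The groups did not overlap, and the log2 difference was -0.96 (exact permutation test, p = 0.0286, adjusted p = 0.143). It was -0.51 against M1N and M2N and -1.41 against TN1 and TN2. Against miR-20a-5p the difference was -0.88 (exact permutation test, p = 0.0286, adjusted p = 0.143), and the groups did not overlap either. With the correction for base composition the ratio to miR-106b-5p still separated the groups at -0.85 (exact permutation test, p = 0.0286), while that to miR-20a-5p was -0.67 with overlapping groups (exact permutation test, p = 0.229). For ratios between other miRNAs, the share that separated the groups was not computed, and both ratios rest on 11 to 41 miR-20b-5p counts per mouse. In contrast, miR-106b-5p kept close to miR-17-5p, at 0.161 to 0.233 times its count in all 8 mice, with a log2 difference of 0.12 (exact permutation test, p = 0.429). That difference ran from 0.048 without M3W to 0.23 without M1W, and was 0.012 with the correction for base composition. The ratios of miR-20b-5p to miR-93-5p and of miR-106a-5p to miR-17-5p differed by -0.59 and -0.76 (exact permutation tests, p = 0.371 and 0.2), and the groups overlapped.

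The seed AAAGUGC family showed how the members add up with their paralogs. Over the 8 mice, miR-93-5p gave 42.2% of its reads, miR-17-5p 33.7%, miR-20a-5p 16.4% and miR-106b-5p 6.53%, while miR-106a-5p (0.572%) and miR-20b-5p (0.537%) gave little. The family summed to 1165, 1186, 1219 and 1195 CPM in M1N, M2N, TN1 and TN2 and to 1367, 1561, 1284 and 1375 CPM in M1W, M2W, M3W and M5W. Each WD mouse was above each SD mouse, with means of 1191 ± 22.6 and 1397 ± 117 CPM (SD, n = 4) and a log2 difference of 0.23. The exact permutation test gave p = 0.0286, and 0.0857 after adjustment over the 6 sums tested. How often comparable sums of other miRNAs separate the groups was not computed. As a share of all miRNA counts in place of CPM the groups overlapped, with a log2 difference of 0.22 (exact permutation test, p = 0.171). The SD sums were close although their makeup was not, since the share of miR-93-5p ran from 35.2% in TN1 to 53.0% in M1N. In WD it was 40.0% ± 0.609 (SD, n = 4), beside 44.5% ± 8.18 in SD.

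**Figure D5:**
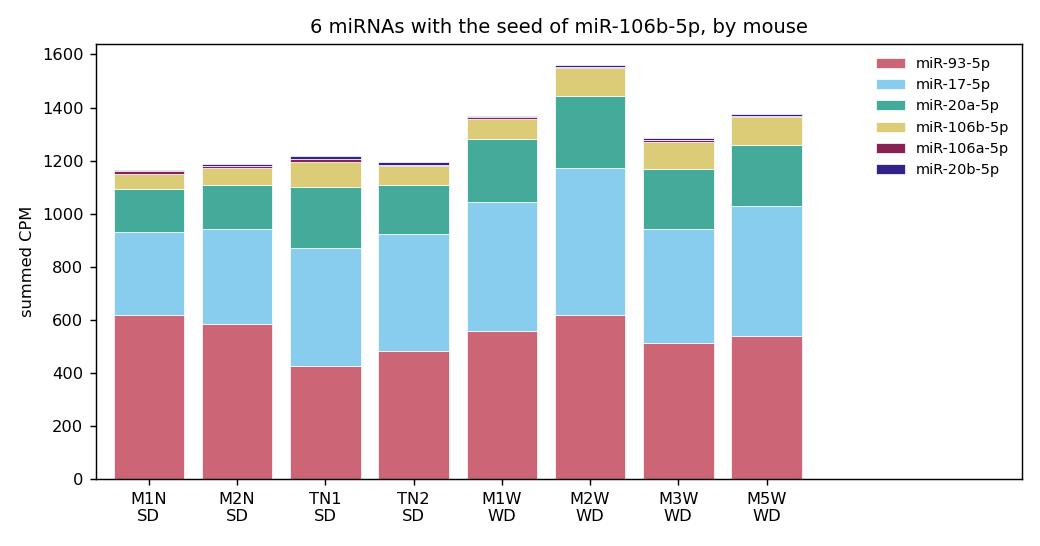
Stacked bars give the summed CPM (y axis, linear, from 0) of the 6 miRNAs with the seed of miR-106b-5p in each mouse. The WD bars stood between 1284 and 1561 CPM and the SD bars between 1165 and 1219 CPM, with miR-93-5p the largest share in each mouse but TN1, where miR-17-5p was slightly above it.

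The non-member paralogs of this family had log2 differences of 0.33 ± 0.17 (SE) for miR-17-5p and 0.37 ± 0.16 (SE) for miR-20a-5p, with unadjusted p of 0.0638 and 0.0362 in edgeR's test and neither called after adjustment. miR-106b-5p at 0.45 lay beside them, whereas miR-93-5p at 0.08 did not. The log2 ratio of miR-93-5p to miR-20a-5p differed by -0.29 (exact permutation test, p = 0.314), by -0.65 against M1N and M2N and by 0.07 against TN1 and TN2. With the correction for base composition the difference was -0.054 (exact permutation test, p = 0.771), and thus was not resolved.

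In the AUUGCAC family, miR-92a-3p held 73.8% of the reads, miR-25-3p 23.9%, miR-32-5p 1.39% and miR-363-3p 0.0513%. The difference of this family had the opposite sign, with 1338 ± 258 CPM in SD and 1026 ± 82.9 CPM in WD (SD, n = 4), a log2 difference of -0.37 (exact permutation test, p = 0.0571, adjusted p = 0.114). The difference was -0.61 against M1N and M2N and -0.12 against TN1 and TN2. Most of it came from miR-92a-3p, which had a log2 difference of -0.47 ± 0.18 (SE), an unadjusted p of 0.0208 and an adjusted p of 0.318 in edgeR's test. The log2 ratio of miR-25-3p to miR-92a-3p differed by 0.28 (exact permutation test, p = 0.2). Against M1N and M2N this was 0.48, against TN1 and TN2 0.082, and without M1N 0.14.

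In the AAGGUGC family, miR-18a-5p held 99.7% of the reads and miR-18b-5p 0.344%. The sum was 226 ± 47.8 CPM in SD and 241 ± 37.4 CPM in WD (SD, n = 4; exact permutation test, p = 0.6).

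Of the 12 arms of the Mir17hg cluster in the table, 11 were tested, and 6 were higher and 5 lower in WD. At an unadjusted p of 0.05 or less in edgeR's test 3 were higher (miR-19a-3p, miR-20a-5p and miR-19b-3p) and 1 was lower (miR-92a-3p), with 0 called after adjustment. The share at this threshold was 16.5% of the miRNA entries, as above. Together the 12 arms summed to 8118 ± 477 CPM in SD and 10003 ± 896 CPM in WD (SD, n = 4), and the groups did not overlap (exact permutation test, p = 0.0286, adjusted p = 0.0857). As a share of all miRNA counts they overlapped (exact permutation test, p = 0.171), and how often comparable sums separate the groups was not computed. Most of this sum is miR-19b-3p and miR-92a-3p, which the X-linked cluster can also give, so it is not a level of Mir17hg alone.

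The miRNAs whose levels ran most alike with the 3 abundant members over the 8 mice differed for each of them. Among 166 mature miRNAs with a mean of 100 or more counts, miR-106b-5p was nearest to miR-20a-5p (Pearson's r of log2 CPM, 0.91), miR-883a-3p (0.91) and miR-471-5p (0.85). miR-93-5p was nearest to miR-669a-5p (0.93), miR-107-3p (0.84) and let-7a-5p (0.83). miR-25-3p was nearest to miR-465a-3p (0.79), miR-465b-3p (0.79) and miR-465c-3p (0.78), which are near-identical copies. Between the members of the cluster themselves r was 0.24 for miR-93-5p with miR-25-3p, -0.28 for miR-93-5p with miR-106b-5p and -0.44 for miR-25-3p with miR-106b-5p. All of these are descriptions over 8 libraries scaled together.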

How the data were processed

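Testis RNA was extracted with Trizol and small RNA libraries were read on a SOLiD sequencer. The authors cut reads at the adaptor, or else at 31 bases, placed them on mm9 using Bowtie with up to 2 mismatches, assigned them with miRBase 18, Rfam and a non-coding RNA database, and deposited raw counts per small RNA and mouse. The submitters' processing notes also name DESeq; versions are not given in the sources used here.

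The test was edgeR's (version 4.0.16, under R 4.3.3), with TMM factors, filterByExpr (minimum count 10, minimum total 15), glmQLFit and glmQLFTest with diet as the only term, two-sided, Benjamini-Hochberg adjusted over all 16955 small RNAs. Standard errors are approximate, as they were worked back from the F statistic. Ratios used 0.5 added to each count and an exact permutation test over all 70 assignments, two-sided. Alternatives used DESeq2 1.42.0 and limma 3.58.1, and figures matplotlib 3.10.9. The edgeR step was tested on simulated data. Sequences came from RefSeq (GRCm38.p6), which held 430 of the 576 mature names, and positions from NCBIM37.

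The members, lists and tests were chosen with earlier results of these data known. Every member was described, with the arms of the Mir17hg cluster, miRNAs that share a seed with a member, and the 3 miRNAs nearest to each member with a mean of 100 or more counts. The corrections for base composition and the unblocked fit of the 4 mice numbered 1 or 2 were added after seeing the data.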

Additional observations from a re-analysis of the deposited data

Results flagged for a closer look

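A mouse was singled out where its gap to the nearest of the other 3, divided by the range of the group, passed Dixon's 95% limit. This happened in 3 of 50 groups of 4 mice, where chance gives about 2.5. The ratio of miR-25-3p to miR-93-5p was 0.442 in M1N, below the 0.589 to 0.615 of the other SD mice. The ratio of miR-20b-5p to miR-106b-5p was 0.0648 in M2W, above the 0.0499 to 0.0509 of the other WD mice. The summed level of the AUUGCAC seed family was 1150 CPM in M2W, above the 973 to 998 CPM of the other WD mice.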

How the results depend on the processing

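Most of the changes followed the choice of control pair, and their cause was not tested. Against M1N and M2N alone, log2 differences were -0.11 for miR-93-5p, 0.70 for miR-106b-5p, -0.71 for miR-93-3p and 0.19 for miR-20b-5p, 2 members had an adjusted p under 0.05, and 2 passed the criteria (1.5-fold, unadjusted p up to 0.1), as did 34% of the miRNA entries. Against TN1 and TN2 alone, 1 member had a p of 0.05 or less, beside 18.1% of the miRNA entries, and 1 passed the criteria, beside 14.9%. Against M1N and M2N, and then TN1 and TN2, the ratio differences were -0.80 and 0.051 for miR-93-5p to miR-106b-5p, -0.65 and 0.068 for miR-93-5p to miR-20a-5p, -0.36 and -1.39 for miR-20b-5p to miR-20a-5p, -0.51 and -1.41 for miR-20b-5p to miR-106b-5p, and 0.29 and -1.46 for miR-20b-5p to miR-93-5p. For the AUUGCAC sum they were -0.61 and -0.12, for miR-106b-25 -0.11 and 0.16, and for the AAGGUGC sum -0.088 and 0.30. As shares of all miRNA counts, the AAAGUGC and Mir17hg sums no longer separated the groups and the AUUGCAC sum did (exact permutation test, p = 0.0286, adjusted p = 0.171).

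M1N has the number of M1W, and M2N that of M2W, but they are separate libraries of different diets. The deviations of these pairs over all small RNAs tested correlated at -0.07 and 0.22. Those of the crossed pairs, M1N with M2W and M2N with M1W, correlated at 0.22 and -0.06. Same-numbered mice were thus no more alike than crossed ones, and the numbers were read as names. With them as a replicate block, log2 differences were -0.032 for miR-93-5p, 0.21 for miR-20b-5p and -0.97 for miR-106a-5p (edgeR unadjusted p = 0.0407, adjusted p = 0.199), and 3 of 7 members passed the criteria, beside 27.9% of the miRNA entries. Without the block the same 4 mice gave -0.031, 0.21, -0.96 and 3 members, beside 28.1%. Blocked ratio differences were -0.64 for miR-93-5p to miR-20a-5p, -0.43 for miR-20b-5p to miR-106b-5p, 0.22 for miR-20b-5p to miR-93-5p, -0.029 for miR-106b-5p to miR-17-5p and -1.59 for miR-106a-5p to miR-17-5p. They were -0.42 for miR-20b-5p to miR-20a-5p and -0.65 for miR-93-5p to miR-106b-5p. For miR-25-3p they were -0.83 to miR-106b-5p, -0.19 to miR-93-5p and 0.44 to miR-92a-3p.

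The number of members with p of 0.05 or less was 1 in the miRNA class alone, where miR-106b-5p was no longer among them (background 12.6%), 1 with mature miRNAs that have a sequence (14.3%) and 0 once these were corrected for base composition (9.09%). With at least 10 counts in every mouse 1 of 6 members passed the criteria (12%). Without single mice, the number with p of 0.05 or less and the number passing the criteria each ran from 0 to 2, beside 11.4% to 22.7% and 12% to 22.9% of the miRNA entries, and that of adjusted calls stayed at 0. Without TN1, miR-93-5p was at -0.012, and over all such removals it ran from -0.012 to 0.16, miR-106b-5p from 0.35 to 0.61, miR-93-3p from -0.65 to -0.39, miR-25-3p from -0.23 to -0.066, miR-106a-5p from -0.66 to -0.25, miR-20b-5p from -0.86 to -0.31, the miR-93 strand ratio from 0.53 to 0.67 and that of miR-106b from 0.44 to 0.83. DESeq2, limma-voom and the other scalings changed no sign and no adjusted call of a member. The low counts of the X-linked arms limit what can be shown for them.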
